A study of Mus musculus with 21 samples.

Results

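The bone morphogenetic protein (BMP) and transforming growth factor beta (TGF-beta) pathway genes described here are 56 of the 18193 genes read on the arrays. A gene belongs to the set if its symbol begins with Bmp followed by a digit or r, or with Gdf, Tgfb, Inhb, Acvr or Smad, or if it is one of Id1, Id2, Id3, Id4, Nog, Chrd, Fst, Grem1 and Bambi. Each gene was read through the probe set that varied most over the 21 arrays, and 34 of the 56 have several probe sets. By role the set holds 22 ligands, 12 receptors, 6 Smads that carry the signal, 2 inhibitory Smads, 5 antagonists, 4 Id genes and 5 genes that share a prefix but are not pathway components in the same sense. No probe set is named for Gdf7, Gdf6 or Gdf15 alone here, and these were not analysed here.

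The samples were post-mitotic neurons purified from differentiating mouse embryonic stem cells, in 7 groups of 3 biological replicates. Wild type cells were taken after 10 days with FGF8 (described as dorsal midbrain) and after 8 days with retinoic acid, RA (described as dorsal hindbrain). The NesE-Lmx1a line was taken after 10 and 14 days with SHH and FGF8 as dopaminergic neurons, the NesE-Nkx2.2 line after 10 days with SHH and either FGF8 or RA as serotonergic neurons, and the NesE-Olig2 line after 8 days with SHH and RA as somatic motoneurons. NesE denotes the nestin enhancer, which is active in neural progenitors, so each factor is driven before the cells become neurons. The titles of the wild type samples name SHH, while their source names give FGF8 or RA alone. If wild type cells received no SHH, an effect of SHH and an effect of the line cannot be told apart wherever wild type is the control. The Nkx2.2 line with RA also differs from its wild type by 2 days of culture, which cannot be told apart from the line either, and no wild type was taken at day 14. RA wild type (day 8) and FGF8 wild type (day 10) differ in day as well. Wherever they are compared below, condition and day cannot be told apart.

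BMP and TGF-beta ligands are secreted dimers that bring together type I and type II receptors. The activated type I receptor phosphorylates Smad1, Smad5 and Smad9 (BMP branch) or Smad2 and Smad3 (TGF-beta and activin branch), which enter the nucleus with Smad4. Smad6 and Smad7 block the receptors, secreted antagonists such as noggin, chordin and follistatin bind the ligands, and the Id genes are direct targets of the BMP branch. In the neural tube, BMPs from the roof plate and the overlying ectoderm pattern the dorsal side, and SHH from the floor plate patterns the ventral side. The comparison of dorsally labelled wild type cells with the ventral lines therefore asks how the components of a dorsal signal differ between cultures labelled as dorsal and as ventral cell types.

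All values below are deposited log2 signals from which, as inferred from the numbers, the median of each probe set over 27 arrays had been subtracted. A value of 2 on an array is thus 2 log2 units above that median, differences between groups can be read, and absolute levels, or absence, cannot. Differences are given as log2 difference ± SE from limma, and a gene was called when the Benjamini-Hochberg adjusted p over all 18193 genes was under 0.05 and the absolute difference was 1 or more. In RNA pooled from many cells, fewer cells of a type and less RNA per cell cannot be told apart.

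The driven factors were highest in their own lines with 2 exceptions. Lmx1a read 8.06 to 9.31 on the 6 arrays of its line and at most 4.39 elsewhere. Nkx2-2 read 0.96 to 1.85 on 5 arrays of its line and 0.13 on replicate 3 with FGF8, where the 15 other arrays read up to 0.20. Olig2 read 3.80 to 5.24 in its line, but replicate 3 of the Lmx1a line at day 10 read 4.89, which goes against its label, and whether that library holds other cells was not tested. Without this array the 4 calls of members in the Lmx1a line against FGF8 wild type, the day 14 call and the 4 averaged calls given below were kept, and of 5 calls between the Lmx1a and Nkx2.2 lines those of Bmp7 (2.78, adjusted p = 0.0668) and Nog (1.64, adjusted p = 0.0562) were lost. The bioC hybridization control split the arrays into 9 at -2.75 to -1.27 and 12 at -0.15 to 0.65. All Lmx1a arrays of day 10 are on the low side and all Nkx2.2 and RA wild type arrays are on the high side, while the FGF8 wild type and the Olig2 line have 2 arrays on the low side and 1 on the high side. The labels name no batch, and results were therefore also computed with this split as a block and within a side. On the high side the Olig2 line and FGF8 wild type have 1 array each, which is there assumed to vary like the other groups, so a call lost in that fit says nothing about stability. Replicate 2 of the FGF8 wild type read low for cycling genes (Mki67 at -2.32 against 1.79 and 2.2 in the other two). It is treated here, with replicate 1 of the Lmx1a line at day 10 and replicate 1 of the Nkx2.2 line with FGF8, as an array that stands apart. These 3 arrays were named without a numeric criterion. Mki67 was not low on the Lmx1a array (0.98). Replicate 2 of the Nkx2.2 line with FGF8, which like the wild type array read low for Id1 and Id3 (-3.085 and -1.75), was kept. Leaving out these 3 arrays together kept 39 of the 55 calls of members given below. The calls lost in this way were those of Bmp1, Bmp5 and Tgfbr2 in the Lmx1a line against wild type (1.69, 2.44 and 2.65), Bmp5 and Id2 in the Nkx2.2 line with FGF8 (2.37 and -1.62), Inhbb in the Nkx2.2 line with RA (2.25, adjusted p = 0.0501), and Bmp5 and Tgfbr2 in the average (1.25 and 1.04). Also lost were Bmp1, Bmp7 and Fst between the Lmx1a and Nkx2.2 lines (2.03, 3.18 and -1.84), Bmp7 and Id4 between RA and FGF8 in the Nkx2.2 line (-2.56 and -1.06), Smad1 and Smad6 between the wild types (1.02 and 1.44) and Id4 in the interaction (1.39).

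Read through the most variable probe set of each gene, the members had wider ranges than all genes. Several probe sets to choose from were available for 34 of 56 members and 9010 of 18193 genes. The part of that choice in the wider ranges was not tested. Over the 21 arrays the range was 1 or more for 43 of 56 members (76.8%) against 62.8% of all genes, and the median range was 2.45 against 1.45. The other 13 members were flat. In all, 22 members (39.3%) were called in at least 1 of 10 comparisons, where 29% of all genes were, and 34 in none, and these 34 are the 13 flat members and 21 that varied. No member was called lower, or higher, in all 4 comparisons of a line with wild type.

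**Figure D1:**
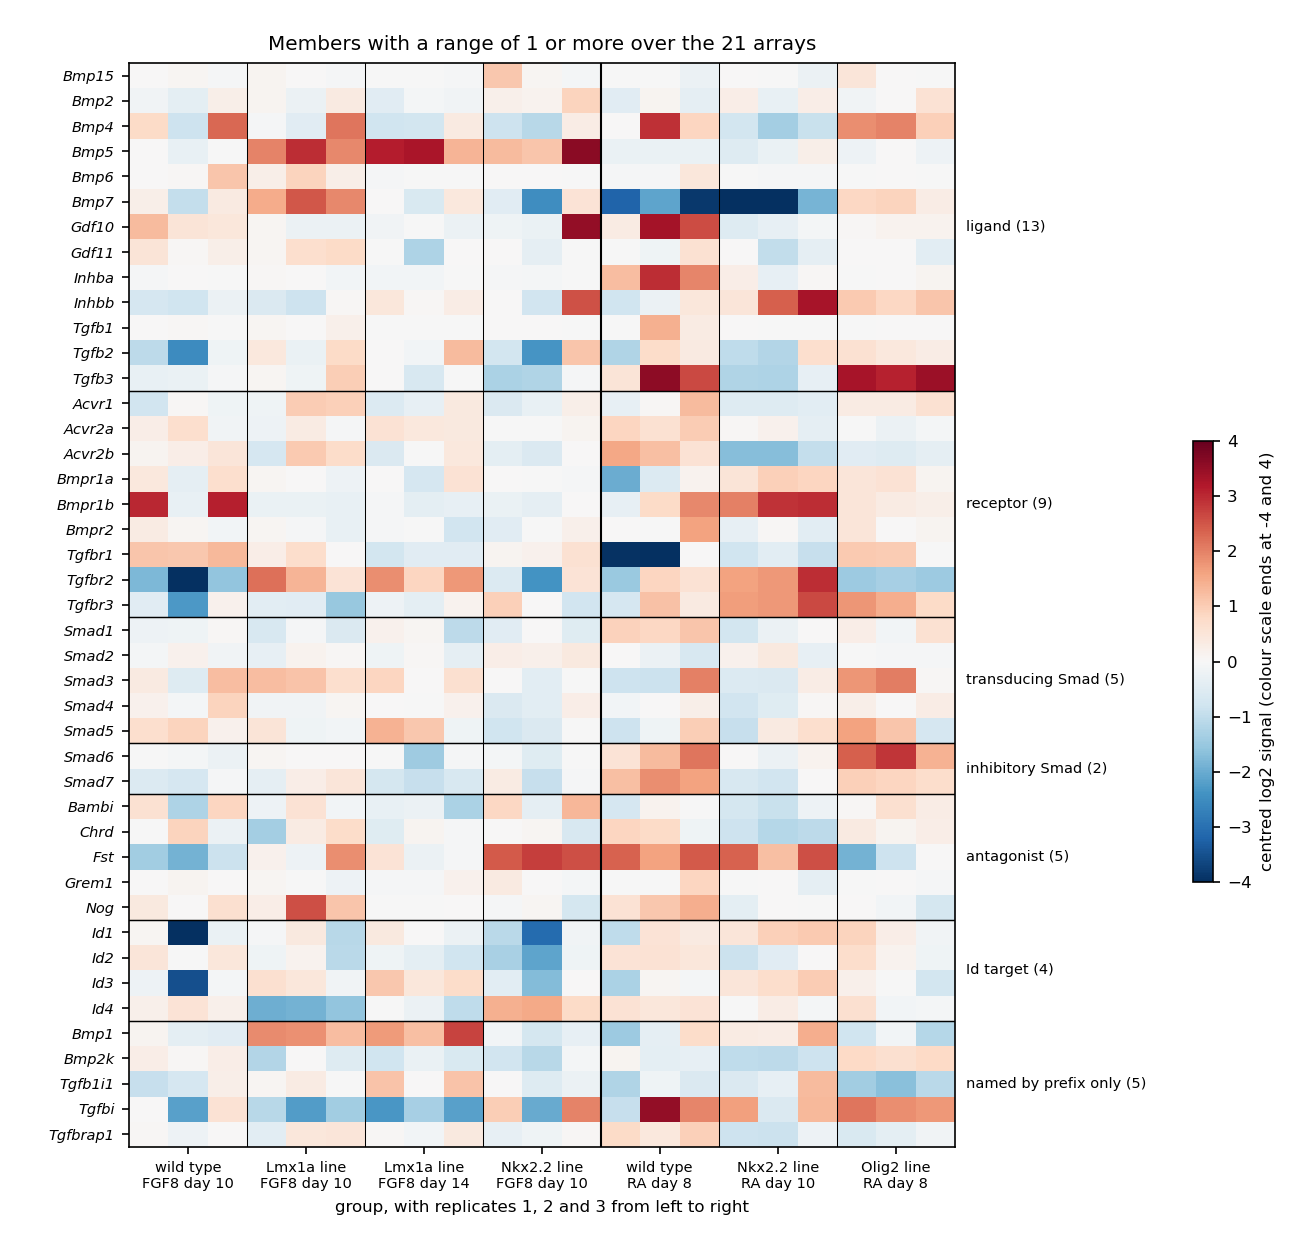
Centred log2 signal of the 43 members with a range of 1 or more (rows, grouped by role) on the 21 arrays (columns, 3 per group, FGF8 groups left of the heavy line and RA groups right of it). Colour runs from -4 (blue) to 4 (red) and stops there; Bmp5 is red in all 9 FGF8 line arrays, Id4 is blue in the Lmx1a line at day 10, and Inhba is red in the RA wild type alone.

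A single member is 1.79% of the set, so counts of 1 to 3 lie near the share called among all genes in most comparisons with the dorsally labelled wild type. In the Lmx1a line at day 10 against FGF8 wild type, 3 members were higher and 1 was lower, where 1.96% and 1.36% of all genes were called. In the Nkx2.2 line against FGF8 wild type, 2 were higher (background 2.83%) and 1 lower (1.71%). In the Olig2 line against RA wild type at day 8, 2 were higher (5.5%) and 5 lower (4.85%). In the Nkx2.2 line at day 10 against RA wild type at day 8, 3 were higher (8.84%) and 9 lower (9.16%), which for the lower ones is 16.1% of the members. Averaged over FGF8 and RA, the ventral lines against wild type had 2 higher (3.62%) and 2 lower (2.97%) members, that is 3.57% each way. The median difference of the 56 members in this averaged comparison was 0.02, as it was over all genes.

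The remaining comparisons were within the lines or within wild type. In the Lmx1a line, day 14 against day 10, 1 member was higher (2.96%) and 0 were lower (1.28%) by limma, while 2 and 8 members had an unadjusted p under 0.05 in these directions. With FGF8, the Lmx1a line had 3 members higher than in the Nkx2.2 line (2.2%) and 2 lower (2.87%). The Nkx2.2 line with RA against FGF8 had 1 higher (2.66%) and 3 lower (1.65%). Wild type with RA at day 8 against FGF8 at day 10 had 6 higher (4.29%) and 2 lower (3.11%). The difference between the effect of the Nkx2.2 line with FGF8 and its effect with RA, a test of the interaction, had 6 members higher (2.6%) and 1 lower (1.78%).

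**Figure D2:**
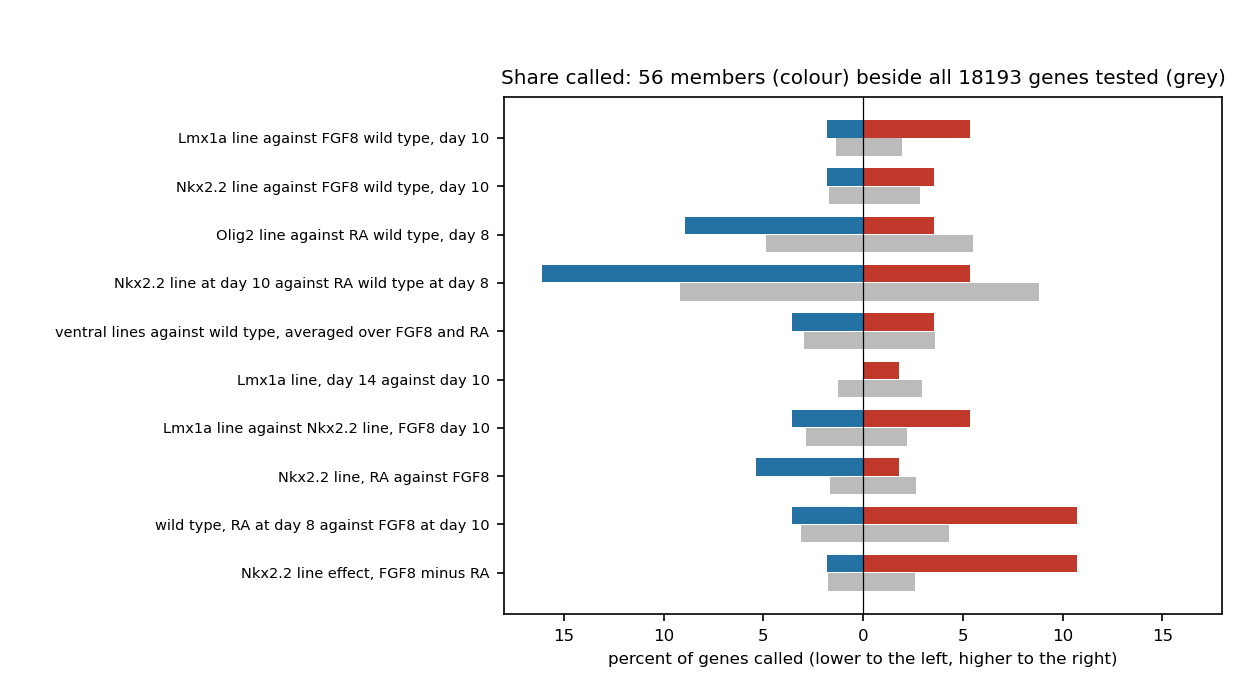
Percent of the 56 members called (red higher, blue lower) beside the percent of all genes tested (grey) in each of the 10 comparisons. The members' bars stay near the grey bars in the averaged comparison (3.57% against 3.62% and 2.97%) and reach farthest for the members that were lower in the Nkx2.2 line with RA (16.1% against 9.16%).

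Setting each line beside its wild type, 21 members (37.5%) were called by limma in at least 1 of 4 comparisons, against 25.1% of all genes. Of these, 5 (8.93% of the members) were called in 2 comparisons, against 7.05% of all genes, and 0 in 3 or 4, against 1.85%. A single member being 1.79% of the set, the last of these shares cannot be told from the background. The 5 are Bmp5, Fst, Acvr2b, Inhba and Tgfbrap1. The comparisons of the Lmx1a and Nkx2.2 lines with FGF8 share the same 3 wild type arrays, and those of the Olig2 and Nkx2.2 lines with RA share another 3, so a gene that stands out in one wild type group appears in both comparisons of that pair.

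**Figure D3:**
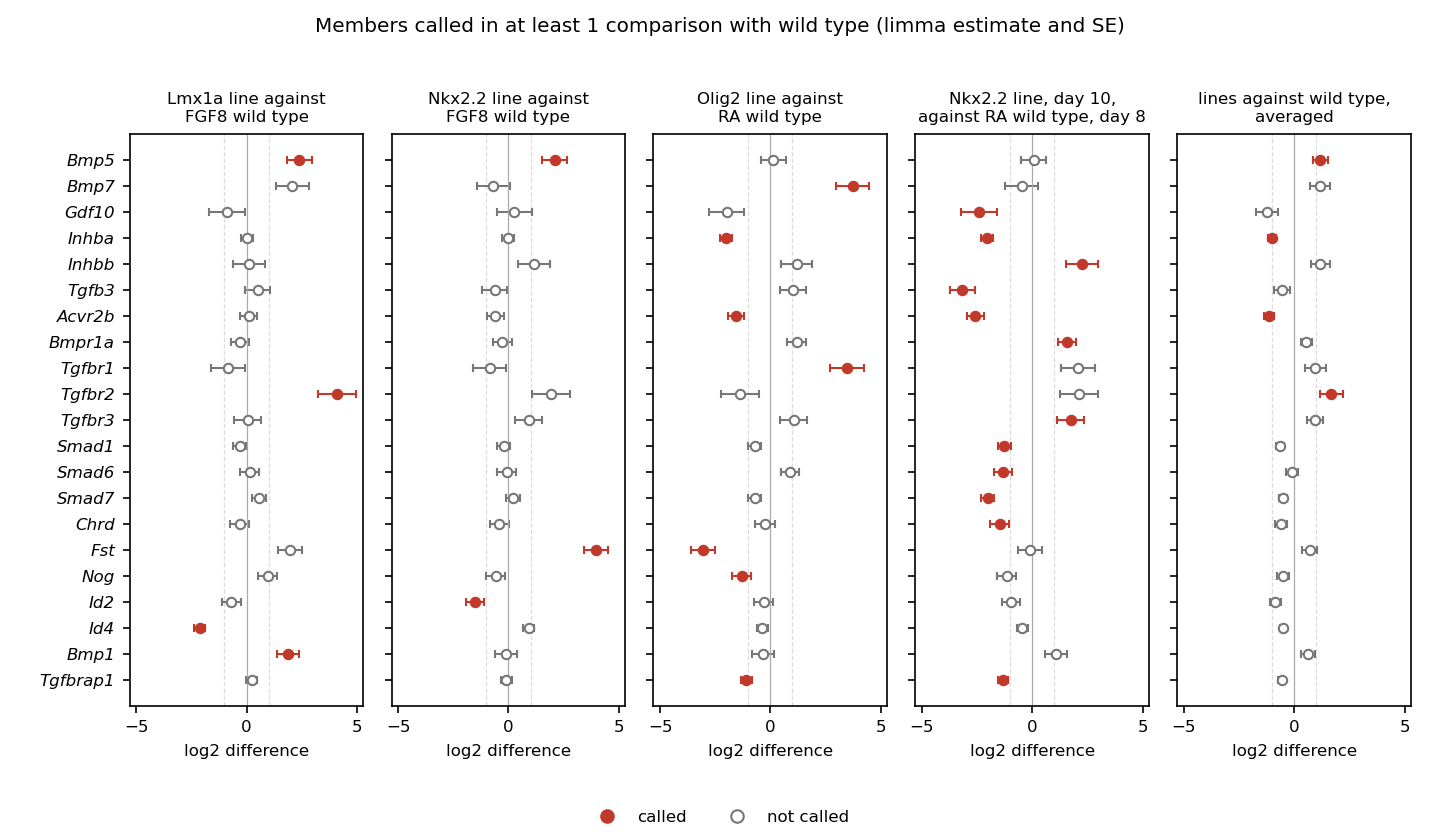
Log2 difference ± SE (limma) of the 21 members called in at least 1 comparison with wild type, for the 4 lines and for their average; filled red points were called and open points were not, and dashed lines mark -1 and 1. Fst runs from 3.96 in the Nkx2.2 line with FGF8 to -3.04 in the Olig2 line, so its average over the lines is 0.70.

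The regulatory sequence upstream of the members is shown for Id2, Id3 and Id4, which are direct BMP targets, and for the members called in the averaged comparison. Promoter windows of 250 bases before the RefSeq start (GRCm38.p6) were found for 39 of the 56 members. They were searched on both strands for 3 motifs. GTCTAGAC is the palindrome bound by Smad3 and Smad4. GGCGCC is a GC-rich motif bound by Smads of the BMP branch. The related motif of that branch searched here was GGAGCC. Capitals mark matches on either strand.
Id2, chr12:25096093-25096342, minus strand: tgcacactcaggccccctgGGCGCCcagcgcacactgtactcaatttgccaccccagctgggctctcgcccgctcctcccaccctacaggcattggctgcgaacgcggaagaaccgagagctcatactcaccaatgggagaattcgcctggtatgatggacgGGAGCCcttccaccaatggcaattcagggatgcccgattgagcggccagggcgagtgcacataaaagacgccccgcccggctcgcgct
Id3, chr4:136143572-136143821, plus strand: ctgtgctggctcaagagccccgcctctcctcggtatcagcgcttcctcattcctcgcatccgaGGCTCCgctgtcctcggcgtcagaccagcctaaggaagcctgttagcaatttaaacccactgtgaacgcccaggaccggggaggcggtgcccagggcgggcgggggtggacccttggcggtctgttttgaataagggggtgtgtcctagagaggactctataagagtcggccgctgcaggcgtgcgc
Id4, chr13:48260866-48261115, plus strand: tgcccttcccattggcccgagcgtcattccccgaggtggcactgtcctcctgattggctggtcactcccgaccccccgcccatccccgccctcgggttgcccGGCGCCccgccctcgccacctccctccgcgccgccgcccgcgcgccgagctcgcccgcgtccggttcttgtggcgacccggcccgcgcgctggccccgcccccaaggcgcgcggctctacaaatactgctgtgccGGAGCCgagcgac
The Id2 and Id4 windows each hold 1 match to GGCGCC. All 3 windows hold 1 match to GGAGCC. Of 32851 mouse promoter windows of this length, 9.59% held GGCGCC at least once. The share that held GGAGCC was 26%. The motifs do not overlap in these windows. The Id4 window is 75.6% G and C, and the Id2 and Id3 windows are 62.8% each.
Acvr2b, chr9:119401928-119402177, plus strand: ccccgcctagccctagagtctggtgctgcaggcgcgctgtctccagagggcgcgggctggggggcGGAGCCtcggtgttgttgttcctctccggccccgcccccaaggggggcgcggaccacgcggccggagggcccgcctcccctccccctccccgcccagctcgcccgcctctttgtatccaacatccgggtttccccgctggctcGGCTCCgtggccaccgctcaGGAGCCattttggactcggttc
Inhba, chr13:16011601-16011850, plus strand: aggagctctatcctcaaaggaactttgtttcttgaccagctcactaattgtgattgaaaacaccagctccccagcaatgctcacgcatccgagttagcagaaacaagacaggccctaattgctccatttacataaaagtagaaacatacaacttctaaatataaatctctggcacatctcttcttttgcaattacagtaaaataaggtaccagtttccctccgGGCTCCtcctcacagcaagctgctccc
Tgfbr2, chr9:116175364-116175613, minus strand: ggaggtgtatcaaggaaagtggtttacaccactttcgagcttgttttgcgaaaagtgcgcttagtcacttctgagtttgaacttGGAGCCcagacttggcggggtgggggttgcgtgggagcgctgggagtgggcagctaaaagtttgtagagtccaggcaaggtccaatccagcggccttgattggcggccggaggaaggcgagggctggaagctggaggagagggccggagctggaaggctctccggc
Bmp5, chr9:75775115-75775364, plus strand: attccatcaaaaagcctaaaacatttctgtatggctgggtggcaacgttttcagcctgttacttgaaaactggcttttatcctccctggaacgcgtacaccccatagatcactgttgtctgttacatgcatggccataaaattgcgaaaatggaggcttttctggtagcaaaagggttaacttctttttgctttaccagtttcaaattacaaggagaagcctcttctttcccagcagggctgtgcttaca
The Acvr2b window holds 3 copies of GGAGCC, the Inhba and Tgfbr2 windows hold 1 each, and the Bmp5 window holds none of the 3 motifs. The palindrome GTCTAGAC was in none of the members' windows and in 0.167% of all windows. Over the 46 windows of the members, 26.1% held GGCGCC at least once. The share of them that held GGAGCC was 50%. These are matches of letters, and binding was not measured.

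Among the ligands, 6 of 22 were called in some comparison, where 29% of all genes were: Bmp5, Bmp7, Gdf10, Inhba, Inhbb and Tgfb3. Bmp5, a BMP of the same subgroup as Bmp7, was high in all FGF8 cultures of the engineered lines. It read 2.00, 2.95 and 1.92 in the Lmx1a line at day 10, 3.14, 3.28 and 1.37 at day 14, and 1.27, 1.11 and 3.62 in the Nkx2.2 line with FGF8. The 3 FGF8 wild type arrays read 0.01, -0.31 and -0.02, and the 9 RA arrays lay between -0.50 and 0.22. None of the 9 FGF8 line arrays overlapped any of the other 12. Against FGF8 wild type, Bmp5 was higher by 2.40 ± 0.57 in the Lmx1a line (adjusted p = 0.0245) and by 2.11 ± 0.57 in the Nkx2.2 line (adjusted p = 0.0354). Averaged over FGF8 and RA the difference was 1.17 ± 0.35 (adjusted p = 0.0246), although it was 0.12 ± 0.57 in the Olig2 line and 0.07 ± 0.57 in the Nkx2.2 line with RA. Within the Nkx2.2 line it was lower with RA than with FGF8 (-2.19 ± 0.57, adjusted p = 0.0289), but the interaction missed the threshold (2.03 ± 0.80, adjusted p = 0.164). The call within the Nkx2.2 line was lost without FGF8 replicate 3 (-1.38) or without RA replicates 1 or 2 (-2.03 and -2.14, adjusted p up to 0.0972).

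The Bmp5 calls rest on few arrays. Against FGF8 wild type the Lmx1a call was lost, at 2.07 to 2.45, without replicate 2 of the line or without any 1 of the wild type arrays (adjusted p up to 0.0803). The Nkx2.2 call was lost in the same way without replicate 3 of the line, where the difference was 1.30 (adjusted p = 0.0961), or without any 1 wild type array (up to 0.0933). The averaged call was lost without replicate 3 of the Nkx2.2 line with FGF8 (0.97, under the limit of 1), replicate 2 of the FGF8 wild type, or replicates 1 or 2 of the RA wild type (adjusted p up to 0.0562). Of the 3 Bmp5 probe sets, the other two read 0.50 and 1.66 in the Lmx1a line and 1.10 and 0.68 in the Nkx2.2 line, and neither was called when each probe set was tested singly.

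Bmp7, a roof plate BMP, set the Olig2 line apart from the other RA groups. It read 0.83, 0.88 and 0.30 in the Olig2 line, -3.20, -2.10 and -3.86 in RA wild type, and -4.42, -4.31 and -1.85 in the Nkx2.2 line with RA. With FGF8 it read 0.23, -0.94 and 0.36 in wild type, 1.47, 2.50 and 1.93 in the Lmx1a line at day 10, 0.00, -0.61 and 0.44 at day 14, and -0.46, -2.49 and 0.54 in the Nkx2.2 line. The 3 motoneuron arrays thus lay above all RA arrays of the other two groups, and the 3 Lmx1a arrays of day 10 lay above all other arrays. Bmp7 was higher in the Olig2 line than in RA wild type by 3.73 ± 0.75 (adjusted p = 0.00326), with all 3 probe sets called (3.47 to 3.73) and the call kept with each of the 6 arrays left out. It was higher in the Lmx1a line than in the Nkx2.2 line with FGF8 by 2.77 ± 0.75 (adjusted p = 0.0339), also with all 3 probe sets. It was lower in RA than in FGF8 wild type (-2.94 ± 0.75, adjusted p = 0.0202).

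Against FGF8 wild type, Bmp7 in the Lmx1a line missed the threshold (2.08 ± 0.75, adjusted p = 0.151). With the mean of all probe sets in place of the most variable one it passed (2.27, adjusted p = 0.0452), as did the averaged comparison (1.28, adjusted p = 0.0241) and the fall from day 10 to day 14 (-2.23, adjusted p = 0.0421). The difference between RA and FGF8 within the Nkx2.2 line (-2.73 ± 0.75, adjusted p = 0.041) came from groups that overlap, and it was lost without replicates 1 or 3 of the FGF8 arrays or 1 or 2 of the RA arrays (adjusted p up to 0.155). The Lmx1a against Nkx2.2 call was lost without replicates 2 or 3 of the former or 1 or 2 of the latter (1.92 to 2.94, adjusted p up to 0.159). The wild type call was lost without replicates 1 or 3 of either wild type group (adjusted p up to 0.078).

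Inhba encodes the activin beta A subunit and was high in RA wild type alone. Its 3 arrays there read 1.23, 2.96 and 1.96, and the 18 other arrays lay between -0.32 and 0.28. Inhba was lower in the Olig2 line (-2.01 ± 0.28, adjusted p = 0.000182) and in the Nkx2.2 line with RA (-2.05 ± 0.28, adjusted p = 6.77e-05), both against those same 3 arrays. The averaged difference was -1.02 ± 0.17 (adjusted p = 0.000609). With FGF8 the differences were 0.01 ± 0.28 in the Lmx1a line and -0.03 ± 0.28 in the Nkx2.2 line, so the average is carried by the RA comparisons. The interaction for the Nkx2.2 line was called (2.02 ± 0.39, adjusted p = 0.00894), and RA wild type exceeded FGF8 wild type by 2.06 ± 0.28 (adjusted p = 0.000322). All these calls but the averaged one held with each array left out in turn. The averaged difference came to -0.98 without replicate 2 of the Nkx2.2 line with RA and -0.79 without replicate 2 of RA wild type, both short of the limit of 1. Fitted on the compared arrays alone, the Olig2 and Nkx2.2 differences had adjusted p = 0.0506 and 0.0522. The second Inhba probe set was flat, and the averaged call was lost with the mean of all probe sets.

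Tgfb3, one of the 3 TGF-beta ligands, was shared by RA wild type and the Olig2 line. It read 0.52, 3.59 and 2.63 in RA wild type and 3.31, 3.09 and 3.42 in the Olig2 line, a difference of 1.03 ± 0.58 that missed the threshold (adjusted p = 0.287). In the Nkx2.2 line with RA it read -1.19, -1.24 and -0.33, lower than RA wild type (-3.17 ± 0.58, adjusted p = 0.000708). RA wild type exceeded FGF8 wild type by 2.45 ± 0.58 (adjusted p = 0.0128), a call that was lost without replicate 2 of RA wild type (1.78, adjusted p = 0.063).

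Inhbb, the activin beta B subunit, was higher in the Nkx2.2 line with RA than in RA wild type by 2.25 ± 0.72 (adjusted p = 0.0284). Gdf10, a divergent BMP-like ligand, was lower there (-2.40 ± 0.81, adjusted p = 0.037). Both are uneven within groups. Inhbb read 0.49, 2.39 and 3.29 in the Nkx2.2 line with RA and -0.81, -0.23 and 0.46 in wild type, and Gdf10 read 0.33, 3.32 and 2.62 in RA wild type and 3.5 on a single Nkx2.2 array with FGF8. The Inhbb call was lost without replicates 2 or 3 of the line or 1 or 2 of wild type (1.63 to 2.23, adjusted p up to 0.135). The second Inhbb probe set differed by 0.015 and was not called. The Gdf10 call was lost without any 1 of the line's arrays or without wild type replicates 2 or 3 (-2.52 to -1.79, adjusted p up to 0.17).

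Bmp4, the other main BMP of the dorsal neural tube, was called nowhere. It read 0.78, -0.81 and 2.31 in FGF8 wild type, -0.04, -0.44 and 2.13 in the Lmx1a line at day 10, -0.80, -0.75 and 0.35 at day 14, and -0.83, -1.09 and 0.30 in the Nkx2.2 line with FGF8. In RA it read 0.00, 2.93 and 0.85 in wild type, 1.87, 1.98 and 0.95 in the Olig2 line, and -0.75, -1.37 and -0.89 in the Nkx2.2 line. The groups overlap widely, and the averaged difference was -0.86 ± 0.52 (adjusted p = 0.304). The largest difference, in the Nkx2.2 line with RA against wild type, was -2.27 ± 0.84 (adjusted p = 0.0591). Bmp2, Bmp6, Bmp15, Gdf11, Tgfb1 and Tgfb2 varied by 1 or more and were called nowhere, and 9 ligands (Bmp8a, Bmp8b, Bmp10, Gdf2, Gdf3, Gdf5, Gdf9, Inhbc and Inhbe) were flat.

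Among the receptors, 6 of 12 were called in some comparison (29% of all genes were): Acvr2b, Bmpr1a, Bmpr1b, Tgfbr1, Tgfbr2 and Tgfbr3. Acvr2b is a type II receptor for activins and some BMPs. Its group mean was lowest in the Nkx2.2 line with RA (-1.46), followed by the Olig2 line (-0.45) and the Nkx2.2 line with FGF8 (-0.32). It read 1.55, 1.22 and 0.59 in RA wild type, -0.46, -0.52 and -0.36 in the Olig2 line and -1.69, -1.72 and -0.96 in the Nkx2.2 line with RA. The FGF8 groups lay closer together, at 0.10, 0.25 and 0.48 in wild type, -0.67, 1.05 and 0.72 in the Lmx1a line at day 10, -0.57, -0.03 and 0.41 at day 14, and -0.38, -0.58 and 0.00 in the Nkx2.2 line. No array of either RA line overlapped RA wild type, while the Olig2 arrays lay within the range of the FGF8 arrays. Acvr2b was lower in the Nkx2.2 line with RA (-2.58 ± 0.38, adjusted p = 0.000127), a call kept under every alternative that was run, and lower in the Olig2 line (-1.56 ± 0.38, adjusted p = 0.0102). The averaged difference was -1.16 ± 0.23 (adjusted p = 0.00234). This call was kept with each of the 18 arrays left out and lost with the mean of all probe sets. With FGF8 the differences were 0.09 ± 0.38 (Lmx1a) and -0.60 ± 0.38 (Nkx2.2), and the interaction for the Nkx2.2 line was 1.98 ± 0.54 (adjusted p = 0.0447).

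A second Acvr2b probe set was called too, at -1.67 ± 0.44 in the Nkx2.2 line and -1.64 ± 0.44 in the Olig2 line, and the remaining one was not (-0.74 and -0.89). The Olig2 call was lost without replicate 1 of RA wild type (-1.35, adjusted p = 0.0548) and with the bioC split as a block (-1.31, adjusted p = 0.07). The interaction call was lost in 9 of 12 leave-one-out fits (1.77 to 2.11, adjusted p up to 0.111), all but those without replicate 3 of the Nkx2.2 RA arrays, replicate 2 of FGF8 wild type or replicate 3 of RA wild type. Acvr2a, the sister receptor, differed by -0.94 ± 0.18 in the Olig2 line (adjusted p = 0.00271) and by -0.88 ± 0.18 in the Nkx2.2 line (adjusted p = 0.00217), short of the limit of 1.

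Tgfbr2, the type II TGF-beta receptor, was low in FGF8 wild type and in the Olig2 line. It read -1.80, -4.76 and -1.59 in FGF8 wild type, 2.2, 1.35 and 0.56 in the Lmx1a line at day 10, 1.86, 0.87 and 1.73 at day 14, and -0.54, -2.38 and 0.53 in the Nkx2.2 line with FGF8. With RA it read -1.47, 0.84 and 0.59 in wild type, 1.61, 1.75 and 2.97 in the Nkx2.2 line and -1.45, -1.33 and -1.45 in the Olig2 line. All 6 Lmx1a arrays lay above the 3 FGF8 wild type arrays. The difference at day 10 was 4.09 ± 0.86 (adjusted p = 0.0123), and the averaged difference was 1.68 ± 0.53 (adjusted p = 0.0339) with signs that differ between lines, -1.4 ± 0.86 in the Olig2 line and 2.12 ± 0.86 in the Nkx2.2 line with RA, neither called.

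Replicate 2 of FGF8 wild type, the array that read low for cycling genes, had the lowest Tgfbr2 value of all. Without it the Lmx1a difference was 3.07 and still called (adjusted p = 0.0497), while without the 3 arrays that stand apart (that one, Lmx1a replicate 1 and Nkx2.2 FGF8 replicate 1) it was 2.65 and not called (adjusted p = 0.131). The averaged call was lost without that wild type array (1.17, adjusted p = 0.102) and without Lmx1a replicate 1, Nkx2.2 FGF8 replicate 1, Olig2 replicate 2 or RA wild type replicate 1 (1.32 to 1.67, adjusted p up to 0.116). Of the 2 other Tgfbr2 probe sets, neither was called (0.93 and 0.05 in the Lmx1a line).

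Tgfbr1, the type I TGF-beta receptor, read -3.94, -4.40 and 0.01 on the 3 RA wild type arrays. All 18 other arrays lay between -0.92 and 1.29. It was therefore higher in the Olig2 line than in RA wild type by 3.46 ± 0.76 (adjusted p = 0.00557) with groups that overlap, since Olig2 replicate 3 read -0.01. RA wild type was lower than FGF8 wild type (-3.93 ± 0.76, adjusted p = 0.00387). Both calls held with each array left out, at 2.65 to 4.85 and -5.33 to -3.12, but not on the compared arrays alone (adjusted p = 0.115 and 0.151). A second probe set was called in both comparisons (2.13 and -2.58). The Nkx2.2 line with RA differed from RA wild type by 2.07 ± 0.76 and missed the threshold (adjusted p = 0.0565), but without wild type replicate 3, the one array of that group at 0.01, the difference was 3.46 and was called (adjusted p = 2.69e-06).

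Bmpr1b, a BMP type I receptor, was higher with RA than with FGF8 in the Nkx2.2 line. It read 2.00, 2.90 and 2.96 with RA and -0.26, -0.37 and 0.00 with FGF8, a difference of 2.83 ± 0.69 (adjusted p = 0.0213). Of the 3 Bmpr1b probe sets, the others differed by 0.15 and 0.07 here and by -0.62 and -0.28 in the interaction. Neither was called when each probe set was tested singly. The FGF8 wild type read 3.01, -0.31 and 3.11, so that 1 array, again replicate 2, read like the lines and the other two did not. The interaction was -3.97 ± 0.98 (adjusted p = 0.0294), but the comparisons of the Lmx1a line (-2.21 ± 0.69, adjusted p = 0.0883) and the Nkx2.2 line (-2.15 ± 0.69, adjusted p = 0.0806) with FGF8 wild type missed the threshold. Without FGF8 wild type replicate 2 both passed, at -3.34 (adjusted p = 0.000409) and -3.27 (adjusted p = 0.000272), and so did the averaged difference, which went from -0.75 to -1.31 (adjusted p = 0.00302), and that between RA and FGF8 wild type, from -1.14 to -2.26 (adjusted p = 0.0034). The RA against FGF8 call was lost without replicates 1 or 2 with FGF8 or 2 or 3 with RA (2.66 to 2.81, adjusted p up to 0.0721). The interaction call was lost without replicates 1 or 2 of the line with FGF8, replicate 2 with RA, replicates 1 or 3 of FGF8 wild type or 1 or 2 of RA wild type (-3.97 to -3.39, adjusted p up to 0.0828).

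Bmpr1a, another BMP type I receptor, was higher in the Nkx2.2 line with RA than in RA wild type by 1.58 ± 0.42 (adjusted p = 0.0104), with 4 of 6 probe sets called. Without RA wild type replicate 1, which read -1.99, the difference was 0.98 and short of the limit. Tgfbr3, the coreceptor betaglycan, was higher there by 1.74 ± 0.61 (adjusted p = 0.0459), lost without any 1 of the line's arrays or without wild type replicates 1 or 3 (1.26 to 1.92, adjusted p up to 0.211). The second Tgfbr3 probe set differed by 0.195 and was not called. Acvr1, Acvr2a and Bmpr2 varied and were called nowhere, and Acvr1b, Acvr1c and Acvrl1 were flat.

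Of the 6 Smads that carry the signal, Smad1 alone was called in some comparison (29% of all genes were), and Smad9 was flat. Smad1, of the BMP branch, read 0.94, 0.82 and 1.11 in RA wild type and -1.05 to 0.61 on the 18 other arrays, with no overlap. It was lower in the Nkx2.2 line with RA than in RA wild type (-1.28 ± 0.29, adjusted p = 0.00387) and higher in RA than in FGF8 wild type by 1.06 ± 0.29 (adjusted p = 0.0294). The first call held with each array left out and the second was lost with any 1 of its 6 arrays left out (0.98 to 1.14, adjusted p up to 0.0929). The other two Smad1 probe sets differed by -0.46 and -0.07 in the first comparison and were not called. Smad2, Smad3, Smad4 and Smad5 were called nowhere, and Smad3 was uneven within groups (-0.84, -0.87 and 2.02 in RA wild type).

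The inhibitory Smads are themselves induced by the pathway. Both were higher in RA than in FGF8 wild type, and both were lower in the Nkx2.2 line with RA than in RA wild type. Smad7 read 1.20, 1.85 and 1.60 in RA wild type, 0.95, 0.85 and 0.71 in the Olig2 line and -0.65, -0.78 and 0.00 in the Nkx2.2 line with RA, and the 12 FGF8 arrays lay between -0.92 and 0.49. The 3 RA groups did not overlap one another. Smad7 was lower in the Nkx2.2 line (-2.03 ± 0.30, adjusted p = 0.000148), higher in RA than in FGF8 wild type by 1.98 ± 0.30 (adjusted p = 0.000815), and the interaction was 2.24 ± 0.43 (adjusted p = 0.0083). These calls held with each array left out. In the Olig2 line the difference was -0.72 ± 0.30 (adjusted p = 0.134). The second Smad7 probe set did not follow (0.20 in the Nkx2.2 line with RA).

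Smad6 read 0.55, 1.26 and 2.15 in RA wild type, 2.39, 2.87 and 1.4 in the Olig2 line and 0.03, -0.24 and 0.15 in the Nkx2.2 line with RA. The FGF8 arrays lay between -1.415 and 0.08, so the Nkx2.2 line with RA read close to most of them. The mean was highest in the Olig2 line (2.22, against 1.32 in RA wild type). Smad6 was lower in the Nkx2.2 line with RA than in RA wild type (-1.34 ± 0.42, adjusted p = 0.0245) and higher in RA than in FGF8 wild type by 1.43 ± 0.42 (adjusted p = 0.0368). The first call was lost without replicates 1 or 2 of the line or 2 or 3 of wild type (-1.37 to -0.93, adjusted p up to 0.127), and the second without any 1 FGF8 wild type array or without RA replicates 2 or 3 (1.01 to 1.48, adjusted p up to 0.145).

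Of the 5 antagonists, 3 were called in some comparison (29% of all genes were): Fst, Nog and Chrd. Follistatin, encoded by Fst, binds activins and some BMPs and had the widest swings of the secreted inhibitors. It read -1.38, -1.89 and -0.84 in FGF8 wild type and 2.45, 2.76 and 2.56 in the Nkx2.2 line with FGF8. It read 2.35, 1.60 and 2.47 in RA wild type, 2.36, 1.20 and 2.59 in the Nkx2.2 line with RA and -1.90, -0.81 and 0.00 in the Olig2 line. The Lmx1a line lay between, at 0.17, -0.21 and 1.86 on day 10 and 0.54, -0.25 and -0.05 on day 14. High Fst was thus common to both Nkx2.2 groups and RA wild type, and none of their 9 arrays overlapped FGF8 wild type or the Olig2 line.

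Fst was higher in the Nkx2.2 line than in FGF8 wild type by 3.96 ± 0.55 (adjusted p = 0.000389) and lower in the Olig2 line than in RA wild type (-3.04 ± 0.55, adjusted p = 0.00142). The Nkx2.2 line with RA differed from RA wild type by -0.09 ± 0.55 (adjusted p = 0.981), and the interaction was 4.05 ± 0.77 (adjusted p = 0.00792). RA wild type exceeded FGF8 wild type by 3.51 ± 0.55 (adjusted p = 0.000871). The Nkx2.2, wild type and interaction calls were kept under every alternative that was run, and the Olig2 call was lost only within the high side of the bioC split, where 1 Olig2 array remains (-2.14, adjusted p = 0.101). Both probe sets were called in the Olig2 and wild type comparisons (-3.29 and 3.06 for the second), but the second was not called in the Nkx2.2 line with FGF8 (1.24 ± 0.59, adjusted p = 0.34 with each probe set tested singly). The Lmx1a difference from FGF8 wild type was 1.98 ± 0.55 (adjusted p = 0.0511), and it passed with the replicate block (adjusted p = 0.0236), with the bioC split as a block (2.2, adjusted p = 0.0372), among genes with a range of 1 or more (adjusted p = 0.0262), with array weights (1.25, adjusted p = 0.0149) and without Lmx1a replicate 2 (2.39, adjusted p = 0.0338). The Lmx1a line was lower than the Nkx2.2 line with FGF8 (-1.98 ± 0.55, adjusted p = 0.0352), a call lost without any 1 of those arrays but Lmx1a replicate 3 (-2.05 to -1.57, adjusted p up to 0.136).

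Noggin (Nog) and chordin (Chrd) bind BMPs directly. Nog read 0.41, 0.02 and 0.64 in FGF8 wild type, 0.26, 2.59 and 1.10 in the Lmx1a line at day 10, -0.02, -0.02 and 0.01 at day 14, and -0.05, 0.09 and -0.71 in the Nkx2.2 line with FGF8. With RA it read 0.57, 1.08 and 1.46 in wild type, 0.00, -0.10 and -0.70 in the Olig2 line and -0.38, 0.00 and -0.01 in the Nkx2.2 line. Nog was lower in the Olig2 line (-1.30 ± 0.43, adjusted p = 0.0489), a call lost with any 1 of the 6 arrays left out (-1.53 to -1.09, adjusted p up to 0.162). The difference of the Nkx2.2 line with RA was of like size (-1.17 ± 0.43) but missed the threshold (adjusted p = 0.0555). Nog was higher in the Lmx1a than in the Nkx2.2 line with FGF8 by 1.54 ± 0.43 (adjusted p = 0.0366), lost without any 1 of those arrays but Lmx1a replicate 1 (0.90 to 1.69, adjusted p up to 0.117).

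Chrd read 0.86, 0.76 and -0.19 in RA wild type and -0.83, -1.13 and -1.04 in the Nkx2.2 line with RA, lower (-1.48 ± 0.44, adjusted p = 0.0197). The call was lost without replicate 2 of the line or replicates 1 or 2 of wild type (-1.41 to -1.28, adjusted p up to 0.0825). It read 0.35, 0.11 and 0.26 in the Olig2 line, -0.01, 0.89 and -0.22 in FGF8 wild type, -1.35, 0.33 and 0.74 in the Lmx1a line at day 10, -0.47, 0.10 and -0.04 at day 14, and 0.00, 0.07 and -0.65 in the Nkx2.2 line with FGF8. Bambi, a decoy receptor that is itself a BMP target, was called nowhere. It read 0.60, -1.25 and 0.86 in FGF8 wild type and from -0.89 to 1.33 on the other arrays but one Lmx1a array of day 14 at -1.25, and its averaged difference was 0.16 ± 0.31. Grem1 (gremlin) read 0.85 on 1 RA wild type array and between -0.36 and 0.37 on the 20 others, and was called nowhere.

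**Figure D4:**
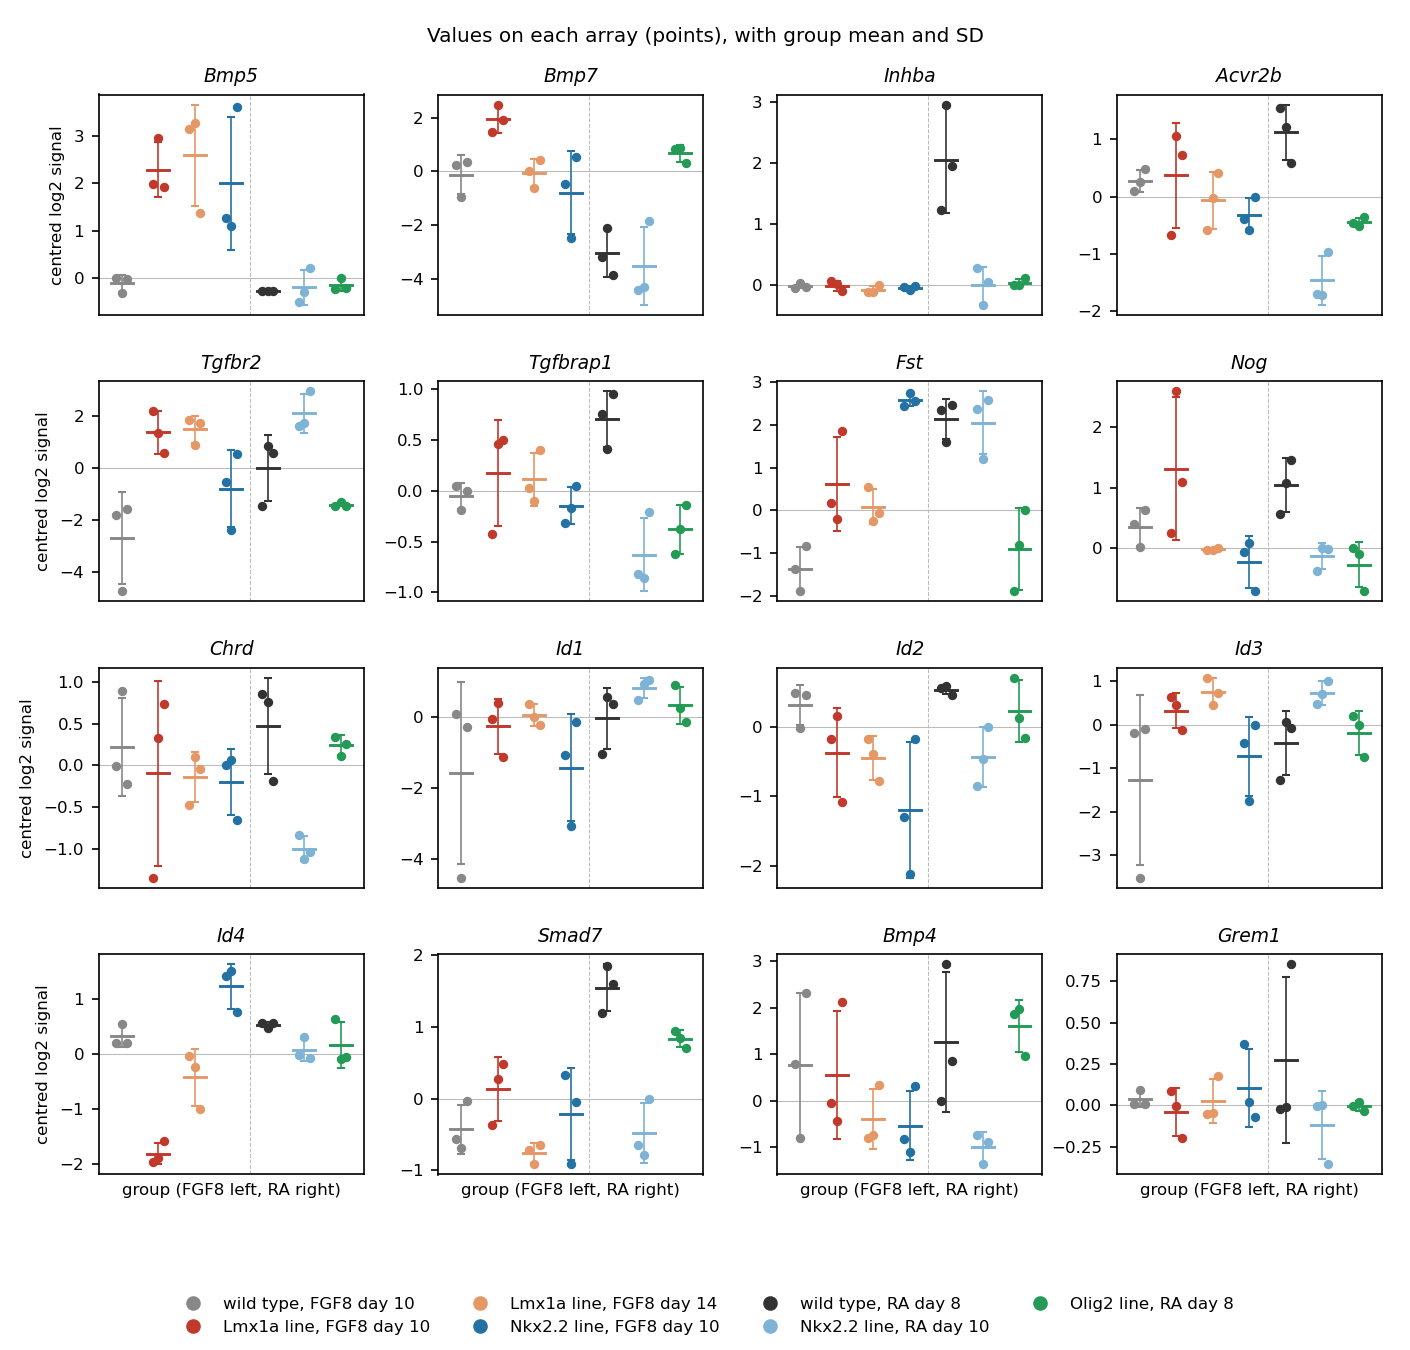
Centred log2 signal on each array (points) with the mean (bar) and SD (whisker) of each group of 3 for 16 members, FGF8 groups left of the dashed line and RA groups right of it; each panel has its own axis. Inhba is high in the 3 RA wild type arrays (1.23 to 2.96), Fst is low in FGF8 wild type and the Olig2 line, and Id1 and Id3 have a single low FGF8 wild type array.

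The Id genes did not move as a group. Id proteins hold basic helix-loop-helix factors inactive and are used as a readout of BMP signalling. Id1 read 0.08, -4.54 and -0.27 in FGF8 wild type, -0.05, 0.39 and -1.12 in the Lmx1a line at day 10, 0.39, 0.00 and -0.22 at day 14, and -1.06, -3.08 and -0.13 in the Nkx2.2 line with FGF8. With RA it read -1.02, 0.56 and 0.37 in wild type, 0.49, 0.94 and 1.04 in the Nkx2.2 line and 0.90, 0.25 and -0.14 in the Olig2 line. Id1 was called nowhere, and its averaged difference was 0.67 ± 0.60 (adjusted p = 0.531). Id3 had the same low arrays, -3.52 on replicate 2 of FGF8 wild type and -1.75 on replicate 2 of the Nkx2.2 line with FGF8, and otherwise lay between -1.27 and 1.08. Its averaged difference was 0.88 ± 0.44 (adjusted p = 0.19) and it too was called nowhere.

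With array weights, which give discordant arrays less influence, the differences of Id1 and Id3 in the Nkx2.2 line against FGF8 wild type turned from 0.15 and 0.54 to -2.82 and -1.35 and were called. The cause of the turn was not tested. Id2 read 0.49, -0.02 and 0.46 in FGF8 wild type, -0.18, 0.15 and -1.09 in the Lmx1a line at day 10, -0.18, -0.39 and -0.79 at day 14, and -1.31, -2.12 and -0.18 in the Nkx2.2 line with FGF8. It read 0.56, 0.58 and 0.46 in RA wild type, -0.86, -0.46 and 0.00 in the Nkx2.2 line and 0.70, 0.13 and -0.16 in the Olig2 line. Id2 was lower in the Nkx2.2 line with FGF8 than in wild type (-1.51 ± 0.41, adjusted p = 0.0391). The call was lost without replicates 1 or 2 of the line or 1 or 3 of wild type (-1.46 to -1.05, adjusted p up to 0.171) and with the replicate block (adjusted p = 0.0561). The averaged difference of Id2 was -0.87 ± 0.25 (adjusted p = 0.0232), short of the limit of 1.

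Id4 was the most even of the 4 and the most clearly different. It read -1.96, -1.90 and -1.59 in the Lmx1a line at day 10 and -0.03, -0.24 and -1.01 at day 14. It read 0.20, 0.55 and 0.20 in FGF8 wild type and 1.42, 1.5 and 0.76 in the Nkx2.2 line with FGF8. With RA it read 0.57, 0.46 and 0.56 in wild type, -0.02, 0.31 and -0.08 in the Nkx2.2 line and 0.64, -0.10 and -0.07 in the Olig2 line. The 3 Lmx1a arrays of day 10 lay below the 18 others, and the 3 Nkx2.2 arrays with FGF8 lay above the 18 others.

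Id4 was lower in the Lmx1a line than in FGF8 wild type (-2.13 ± 0.25, adjusted p = 0.000241) and lower than in the Nkx2.2 line with FGF8 (-3.04 ± 0.25, adjusted p = 1.53e-05). All 3 probe sets were called in both comparisons (-2.13 to -1.39 and -3.04 to -2.05), and both calls were kept under every alternative that was run. For the Lmx1a against Nkx2.2 comparison these did not include a fit within a side of the bioC split. Its Lmx1a arrays are all on the low side and its Nkx2.2 arrays all on the high side. From day 10 to day 14 in the Lmx1a line Id4 was higher by 1.39 ± 0.25 (adjusted p = 0.00395), a call kept with each array left out and lost on the compared arrays alone (adjusted p = 0.0825). The Nkx2.2 line with FGF8 exceeded wild type by 0.91 ± 0.25 (adjusted p = 0.043), short of the limit of 1. Within the Nkx2.2 line Id4 was lower with RA (-1.16 ± 0.25, adjusted p = 0.0121), lost without FGF8 replicate 2 (-1.02, adjusted p = 0.0589). The averaged difference was -0.51 ± 0.16, and the differences in the RA lines were -0.37 ± 0.25 (Olig2) and -0.46 ± 0.25 (Nkx2.2).

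Of the 5 members that share a prefix only, 2 were called in some comparison (29% of all genes were). Bmp2k, Tgfb1i1 and Tgfbi were called nowhere, although Tgfbi varied widely. Bmp1 is a metalloprotease that processes procollagen and cleaves chordin, and no ligand of the family. It read 1.88, 1.83 and 1.22 in the Lmx1a line at day 10, 1.70, 1.21 and 2.71 at day 14, 0.11, -0.38 and -0.45 in FGF8 wild type and -0.10, -0.69 and -0.32 in the Nkx2.2 line with FGF8. It was higher in the Lmx1a line than in wild type by 1.88 ± 0.50 (adjusted p = 0.0425) and than in the Nkx2.2 line by 2.01 ± 0.50 (adjusted p = 0.0214). The first call was lost without any 1 of the 6 arrays but Lmx1a replicate 3 (1.76 to 2.06, adjusted p up to 0.124), and the second without Lmx1a replicate 2 or Nkx2.2 replicates 1 or 2 (1.86 to 2.15, adjusted p up to 0.087). Tgfbrap1, a protein that associates with TGF-beta receptors, read 0.76, 0.41 and 0.95 in RA wild type, -0.82, -0.85 and -0.21 in the Nkx2.2 line with RA and -0.62, -0.38 and -0.14 in the Olig2 line, and the 12 FGF8 arrays lay between -0.42 and 0.50. It was lower in the Nkx2.2 line (-1.34 ± 0.24, adjusted p = 0.000678) and in the Olig2 line (-1.08 ± 0.24, adjusted p = 0.00602), the latter short of the limit of 1 without Olig2 replicate 1 or wild type replicate 3 (-0.96 each). Its interaction was 1.24 ± 0.34 (adjusted p = 0.0476). Of the 3 Tgfbrap1 probe sets, the others differed by -0.24 and 0.01 in the Nkx2.2 line with RA. They differed by -0.605 and 0.03 in the Olig2 line and by 0.003 and -0.014 in the interaction. Neither was called when each probe set was tested singly.

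Other genes of the pathway, taken from lists outside the member rule, were counted in the averaged comparison. Of 20 other secreted antagonists and modulators tested, 1 was higher: Twsg1, which eases or blocks BMP binding by chordin (1.4 ± 0.45, adjusted p = 0.0361). Twsg1 was called in the Olig2 line (2.53 ± 0.73) and the Nkx2.2 line with RA (2.96 ± 0.73), and in neither line with FGF8. It was lower in RA than in FGF8 wild type (-3.01 ± 0.73). The list's median was 0.11, against 0.02 over all genes. Of 13 genes of the nodal branch, coreceptors and latency proteins, 1 was lower, the BMP coreceptor Rgmb (-1.55 ± 0.25, adjusted p = 0.000417). Of 15 intracellular regulators 2 were lower, Zfp423, a zinc finger partner of BMP Smads (-1.47 ± 0.22, adjusted p = 0.000247), and the ubiquitin ligase Nedd4l (-1.17 ± 0.33, adjusted p = 0.0199), with a list median of -0.16. Of 9 other response genes 1 was higher, Hey1 (1.01 ± 0.23, adjusted p = 0.00515), and 1 lower, Msx3 (-1.28 ± 0.27, adjusted p = 0.00329), with a list median of -0.06.

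By line, the same lists held other calls. The antagonist Nbl1 was higher in the Lmx1a line (2.04 ± 0.47, adjusted p = 0.0218) and lower in the Olig2 line (-1.61 ± 0.47, adjusted p = 0.0288), and Sostdc1 was higher in the Nkx2.2 line with FGF8 (2.44 ± 0.68, adjusted p = 0.0422). Zfp423 and the corepressor Ski were lower in 3 of the 4 comparisons, all but that of the Lmx1a line: Ski at -1.17, -1.13 and -1.69 (SE 0.32 each) in the Nkx2.2 line with FGF8, the Olig2 line and the Nkx2.2 line with RA. Gata2 was higher in both Nkx2.2 comparisons (3.36 ± 0.54 with FGF8 and 1.72 ± 0.54 with RA) and lower in the Olig2 line (-3.21 ± 0.54).

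The roof plate and dorsal progenitor list, 15 genes tested, had most of its calls in comparisons with FGF8 wild type. With FGF8, 5 of 15 were lower and 1 higher (the driven Lmx1a itself) in the Lmx1a line, with a list median of -1.53, and 9 of 15 were lower in the Nkx2.2 line, also with a median of -1.53. With RA, 2 were lower in each line (Lmx1a and Zic1) and Olig3 was higher in the Nkx2.2 line, with medians of -0.07 and -0.06. Averaged, 4 were lower: Pax3 (-2.23 ± 0.36, adjusted p = 0.000523), Pax7 (-1.57 ± 0.49, adjusted p = 0.0313), Neurog1 (-2.13 ± 0.41, adjusted p = 0.00186) and Zic1 (-5.69 ± 0.84, adjusted p = 0.000249). The RA wild type, taken at day 8, was itself lower than FGF8 wild type, taken at day 10, for 7 of the 15, with a list median of -1.13. Among them were Pax3 (-4.18 ± 0.59, adjusted p = 0.000453), Neurog1 (-4.41 ± 0.68, adjusted p = 0.000792) and Pax7 (-3.21 ± 0.79, adjusted p = 0.0163), although both groups are labelled dorsal. In the average the median of the list was -0.80 and that of the 56 members 0.02. This list and the members were not compared by a test.

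Markers of other cell types moved with several of the groups in which members were called, and their part in the members' differences was not tested. Values are the mean of a list on each array, and since each gene is centred, a value near 0 does not show absence. The mean of 8 mesenchymal genes was -0.29, 2.44 and 3.19 in RA wild type, where Inhba, Tgfb3, Smad7 and Fst were high, against -1.55 to 0.17 in FGF8 wild type, -0.54 to 0.03 in the Olig2 line, 0.31 to 1.98 in the Nkx2.2 line with RA, -0.18 to 1.5 with FGF8, and -1.63 to 0.27 in the Lmx1a line at day 10. Of the 8, Dcn and Pdgfra were higher in RA than in FGF8 wild type (4.89 ± 0.93 and 2.55 ± 0.79), and Col1a2 and Dcn were lower in the Olig2 line than in RA wild type. Replicate 1 of RA wild type, with the low mesenchymal mean, read 1.23 for Inhba, 1.20 for Smad7 and 2.35 for Fst, above every Olig2 array for Inhba and Smad7, as for Fst. Its Inhba and Smad7 values were nevertheless the lowest of the RA wild type group, and its Fst value was not. The same array read 0.52 for Tgfb3, 0.33 for Gdf10 and 0.55 for Smad6, each likewise the lowest of its group. The Olig2 arrays read 3.09 to 3.42 for Tgfb3.

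The neural crest list, 4 genes, had means of 1.42 to 2.10 in RA wild type, -0.02 to 1.17 in FGF8 wild type and -0.50 to 0.74 in all line groups. Tfap2a of that list was lower in all 4 comparisons, at -4.29, -4.08, -5.88 and -5.91 (SE 0.25 each). Foxd3 was lower in the Olig2 line (-1.83 ± 0.24) and in the Nkx2.2 line with RA (-2.62 ± 0.24). Ednrb went the other way and was higher in the Nkx2.2 line with RA (3.80 ± 1.03). The median difference of the list was 0.08 in the Lmx1a line and -0.06 in the Nkx2.2 line with FGF8. It was -0.84 in the Olig2 line and -1.37 in the Nkx2.2 line with RA. The mean of 7 pan-neuronal genes was -1.10 to -0.64 in the Nkx2.2 line with RA and 0.18 to 0.90 in RA wild type, with Rbfox3, Elavl3 and Tubb3 lower in the former (Rbfox3 -3.44 ± 0.42). The mean of 5 astroglial genes was 1.46 to 1.85 in the Nkx2.2 line with RA, 0.18 to 1.46 with FGF8 and -0.54 to 0.91 in RA wild type. Aqp4, a water channel of astrocytes, read 3.41 to 5.49 on the 6 Nkx2.2 arrays and at most 1.36 on the others. Of 4 choroid plexus genes 1 was higher in the Lmx1a line and 1 in the Nkx2.2 line with RA, against wild type. Of 4 endothelial genes 1 was higher in the Lmx1a line, and of 3 endoderm genes 1 was higher in the Nkx2.2 line with RA. The mean of 5 cycling or progenitor genes was 1.67 and 2.01 on 2 FGF8 wild type arrays and -1.06 on replicate 2, the array with the low Id1, Id3 and Tgfbr2 values.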

How the data were processed

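RNA of 21 samples, 3 in each of 7 groups, was hybridised to Affymetrix Mouse 430 2.0 arrays. The deposited values are on a log2 scale, and the submitters' processing notes name GCRMA; the sources used here do not give a version. The authors' values are further centred, a step read from the numbers: each probe set has at most 13 values above 0 and at most 13 below over the 21 arrays, and 79.2% of probe sets hold an exact 0. A median over 27 arrays is inferred from these counts. The 6 arrays this implies beyond the 21 were not used here.

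Probe sets with exactly 1 gene symbol were kept (34945 of 45037, with 932 on several symbols and 9160 unnamed here), and each gene was read through the probe set with the largest SD, which gave 18193 genes. No filter on low values was set, so all 56 members were tested. The members and lists were chosen with earlier results of these data known.

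Differences were tested with limma 3.58.1 in R 4.3.3 (1 mean per group over all 21 arrays, contrasts, eBayes), with 14 residual and 1.11 prior degrees of freedom and Benjamini-Hochberg adjustment within each of 10 comparisons over 18193 genes. The pipeline was tested on simulated data. Named with a value on each array were the members called in the averaged comparison or in 2 of the 4 line comparisons, and the antagonists, Id genes, Bmp4 and Bmp7; other called members are given with their test, and up to 4 called genes of each other list. Replicate numbers did not pair arrays: the mean correlation of residuals was 0.00603 over 63 pairs with the same number and -0.00337 over 126 pairs with different numbers. Promoter windows are RefSeq's (GRCm38.p6). The number of arrays limits the precision, and the labels call the arrays of a group biological replicates.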

Additional observations from a re-analysis of the deposited data

Results flagged for a closer look

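The effect of the Nkx2.2 line with FGF8 differed from its effect with RA for 7 of the 56 members, by the limma test of the interaction with adjustment over all genes (FGF8 effect minus RA effect). By direction, 10.7% of the members were higher and 1.79% lower, against 2.6% and 1.78% of all genes. Fst (4.05 ± 0.77, adjusted p = 0.00792), Smad7 (2.24 ± 0.43, adjusted p = 0.0083), Inhba (2.02 ± 0.39, adjusted p = 0.00894), Acvr2b (1.98 ± 0.54, adjusted p = 0.0447), Id4 (1.37 ± 0.36, adjusted p = 0.0393) and Tgfbrap1 (1.24 ± 0.34, adjusted p = 0.0476) had the larger value with FGF8, and Bmpr1b (-3.97 ± 0.98, adjusted p = 0.0294) with RA. For Inhba and Smad7 the line read close to FGF8 wild type and below RA wild type, and for Fst it read above FGF8 wild type and close to RA wild type. For Tgfbrap1 the line with FGF8 read close to FGF8 wild type (means -0.15 and -0.05). With RA it read below both wild types (mean -0.63). The wild type with RA was taken at day 8 and all other groups of this test at day 10, so condition and day cannot be told apart in it.

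The calls of Fst, Smad7 and Inhba were kept with each of the 12 arrays left out. Those of Acvr2b, Id4, Tgfbrap1 and Bmpr1b were lost in 9, 9, 10 and 7 of 12 such fits, and for each the direction stayed. For Id4 the difference was 1.23 to 1.4 in the fits that lost the call (adjusted p up to 0.0965), without any array but Nkx2.2 FGF8 replicate 3, Nkx2.2 RA replicate 2 or FGF8 wild type replicate 2. For Tgfbrap1 it was 1.12 to 1.33 (adjusted p up to 0.108), without any array but Nkx2.2 RA replicate 3 or RA wild type replicate 2. Beside the probe set read for each gene, no other probe set of these members was called in the interaction when each was tested singly.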

How the results depend on the processing

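Of 55 calls of members, 6 were kept under every alternative run for them and 23 with each array left out, and none turned its sign. They number 49 with the replicate block, 28 on only the arrays compared, 38 with the bioC split as a block, 17 of 46 within a side of it (13 of 21 where each group has 2 or more arrays there, and 4 of 25 in the Olig2, wild type, interaction and Nkx2.2 with FGF8 comparisons, where 1 group has a lone array assumed to vary like the other groups), 34 with the mean of all probe sets, 53 with probe sets without a name suffix, 50 with arrays centred on their median, 53 with array weights, 54 with trend and robust moderation and 24 at an adjusted p under 0.01. Array weights brought 3 calls of the opposite sign (Id1, Id3 and Gdf10 in the Nkx2.2 line against FGF8 wild type). The cause of these shifts was not tested, and the number of arrays and the spread within groups of 3 limit every count.

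Counts of called members that moved by over 1.5 times are given in the order Lmx1a line against FGF8 wild type (4 as reported), Nkx2.2 line with FGF8 (3), Olig2 line (7), Nkx2.2 line with RA (12), average (4), day 14 against day 10 (1), Lmx1a against Nkx2.2 (5), Nkx2.2 RA against FGF8 (4), wild type RA against FGF8 (8) and interaction (7). On only the arrays compared, the Nkx2.2 line with FGF8 had 1, the Olig2 line 4, the Nkx2.2 line with RA 6, day 14 against day 10 had 0, Lmx1a against Nkx2.2 had 2, Nkx2.2 RA against FGF8 had 1 and wild type 3. At an adjusted p under 0.01 the Lmx1a line had 1, the Nkx2.2 line 1 with FGF8 and 6 with RA, the average 2, Lmx1a against Nkx2.2 had 1, Nkx2.2 RA against FGF8 had 0, wild type 4 and the interaction 3. With array weights these were 12 (Lmx1a line), 12, 19 (Nkx2.2 line with FGF8 and RA), 9 (average), 7 (day 14), 16 (Lmx1a against Nkx2.2), 14 (Nkx2.2 RA against FGF8) and 20 (interaction). With the mean of all probe sets the Nkx2.2 line had 1 with FGF8 and 7 with RA, the average 1, day 14 had 2 and the interaction 4. The 1 in the average was Bmp7 (1.28, adjusted p = 0.0241), which was not called as reported. All 4 reported averaged calls (Acvr2b, Bmp5, Inhba and Tgfbr2) were thus lost with that mean. With the bioC split as a block, Lmx1a against Nkx2.2 had 1 and wild type 4; within its low side the Lmx1a line had 2 and day 14 had 2, and within its high side the Olig2 line had 0, Nkx2.2 RA against FGF8 had 2, wild type 1 and the interaction 2. The average and the Lmx1a against Nkx2.2 comparison could not be computed within a side. Among genes with a range of 1 or more the average had 7 and day 14 had 2, and with no limit on the difference the average had 9. Without the 3 arrays that stand apart the Lmx1a line had 2, day 14 had 3 and Lmx1a against Nkx2.2 had 2. With the replicate block the Nkx2.2 line with FGF8 had 1, losing Bmp5 and Id2; elsewhere the block moved no count by over 1.5 times.

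With 1 array left out, the counts ran from 2 to 4 for the Lmx1a line (2 without FGF8 wild type replicates 1 or 3), from 1 to 4 for the Nkx2.2 line with FGF8 (1 without the same), from 5 to 8 for the Olig2 line, from 7 to 12 for the Nkx2.2 line with RA (7 without its replicate 2), from 2 to 6 for the average (2 without RA wild type replicate 2), from 1 to 3 for day 14 (3 without day 10 replicate 1), from 1 to 5 for Lmx1a against Nkx2.2 (1 without Lmx1a replicate 2 or Nkx2.2 replicates 1 or 2, 3 without Lmx1a replicate 3), from 1 to 4 for Nkx2.2 RA against FGF8 (1 without RA replicate 2, 2 without RA replicate 1 or FGF8 replicate 2), from 5 to 7 for wild type (5 without FGF8 replicates 1 or 3 or RA replicate 2) and from 3 to 7 for the interaction (3 or 4 without replicates 1 or 2 of either Nkx2.2 group or RA wild type, or 1 or 3 of FGF8 wild type). The replicate numbers do not pair samples, so a call lost under the replicate block is not read as a weaker effect.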
